A study of Mus musculus with 4 samples.

Results

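The proteasome is the barrel-shaped protease that degrades proteins tagged with ubiquitin. Its core particle is built from rings of alpha subunits, which form the gated entrance, and rings of beta subunits, some of which carry the active sites. A regulatory particle caps the core and recognises ubiquitin: its ATPase ring unfolds substrates and feeds them in, and its lid removes the ubiquitin. Activated lymphocytes also make inducible beta subunits that replace the constitutive catalytic ones, together with an alternative cap formed by the activators Psme1 and Psme2, and both are known for their part in making peptides for antigen presentation.

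The genes described here are the constitutive members of this complex, taken as the protein-coding rows whose name begins with Psm, a letter from a to g and a digit, without the inducible catalytic genes Psmb8, Psmb9 and Psmb10. The rule found 47 of the 53465 genes in the table, of which 21993 are protein-coding. It took 8 alpha genes, 8 beta genes, 6 ATPases of the base, 14 non-ATPase genes of the lid and base, 5 activators, 1 inhibitor and 4 assembly chaperones. It also took Psmc3ip, which matches by name only, since its product acts in meiotic recombination and is no proteasome subunit. Among all gene types, 54 rows match the name pattern, and 4 of them are pseudogenes with 0 to 5 counts in any library. Of the 47 genes, 38 carry the pathway term Proteasome in the deposited annotation.

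RNA was sequenced from CD8+ T cells of mouse spleen, which were purified and kept for 24 h with beads bearing antibodies to CD3 and CD28, a treatment that mimics T cell receptor and costimulatory signalling. The 4 libraries are 2 labelled PP2Cm KO and 2 labelled WT, all stimulated in the same way and described as biological replicates. PP2Cm, the product of Ppm1k, is the mitochondrial phosphatase that activates the breakdown of branched-chain amino acids. The labels used here do not say how the knockout was made, nor the strain or age of the mice. The genotype field and title of each sample name the opposite genotype to its description code, and groups here follow the genotype field and title.

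The table holds 13394074 and 14199020 counts in the labelled KO libraries, against 12967251 and 17316284 counts in the labelled WT libraries. Ppm1k itself went against the labels, with 11.8 and 14.3 counts per 1000000 (CPM) in the labelled KO libraries and 7.84 and 5.53 CPM in the labelled WT libraries. Every direction below is therefore that of labelled KO over labelled WT and would turn round if the description codes named the genotype. All 8 CD8 T cell markers looked at were detected. Cd8a had 547 and 511 CPM in labelled KO and 542 and 523 CPM in labelled WT. Of the 8, 3 were lower in labelled KO at an unadjusted p under 0.05 by edgeR, against 7.23% of all genes tested. They were Cd3d, Cd3g and Lck, with log2 fold changes of -0.52, -0.41 and -0.30. Markers of other lineages were low in sum, at most 23.2 CPM in any library (the CD4 list), except the endothelial marker Pecam1, at 18.3 ± 0.41 CPM in labelled KO and 33.9 ± 4.5 CPM in labelled WT (SD, n = 2 each). Cdh5 and Col3a1 of that list had 0 counts in every library. Among the markers of other lineages, Cd4 was higher in labelled KO at that threshold, with a log2 fold change of 0.96. Zbtb7b, Cd79b and Pecam1 were lower, at -0.71, -0.61 and -0.88. Pecam1 also passed an adjusted p of 0.05 by DESeq2 (adjusted p = 0.0064), where 2.09% of all genes did. It did not pass by edgeR (adjusted p = 0.112). The part of any of these markers in the results was not tested. In bulk RNA, fewer cells of a type and less RNA per cell cannot be told apart.

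No proteasome gene passed the test between the labels. Of the 47 genes, 45 passed the filter on low counts. By edgeR's quasi-likelihood test with Benjamini-Hochberg adjustment over 13528 genes, 0 of the 45 passed an adjusted p of 0.05, against 0.207% of all genes tested (28 genes). DESeq2 also called 0 of the 45, against 2.09% of all genes (277 genes). At an unadjusted p under 0.05 the count of proteasome genes was again 0, by edgeR and by DESeq2, while edgeR placed 5.7% of all genes there as higher in labelled KO and 7.23% as lower. DESeq2 placed 4.69% there as higher and 5.37% as lower. The lowest adjusted p of the group was 0.412, for the activator gene Psme2. For a single gene, 2 against 2 libraries cannot go below 0.333 in an exact two-sided permutation test, so these p-values rest on the spread that edgeR pools over all genes.

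The fitted differences were small, and their limits, which rest on 2 libraries per label, were wider than most of the differences themselves. The log2 fold change of the 45 genes ran from -0.32 for Psme2 to 0.22 for the lid gene Psmd12 and the activator Psme3. Their median was -0.04, beside -0.01 over all genes tested, and their median size without regard to sign was 0.08, beside 0.19 over all genes. The 95% limits of all 45 genes lay between -0.67 and 0.57. The genes are abundant, with a median level of 164 CPM beside 26.2 CPM over all genes tested, and the median standard error of a proteasome gene was 0.13, beside 0.18 over all genes. Values were above 0 for 17 genes and below 0 for 28, where 48.1% of all genes tested were above 0 and 51.9% below. Together the 47 genes took 0.804% and 0.778% of all counts in the labelled KO libraries and 0.739% and 0.838% in the labelled WT libraries.

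**Figure D1:**
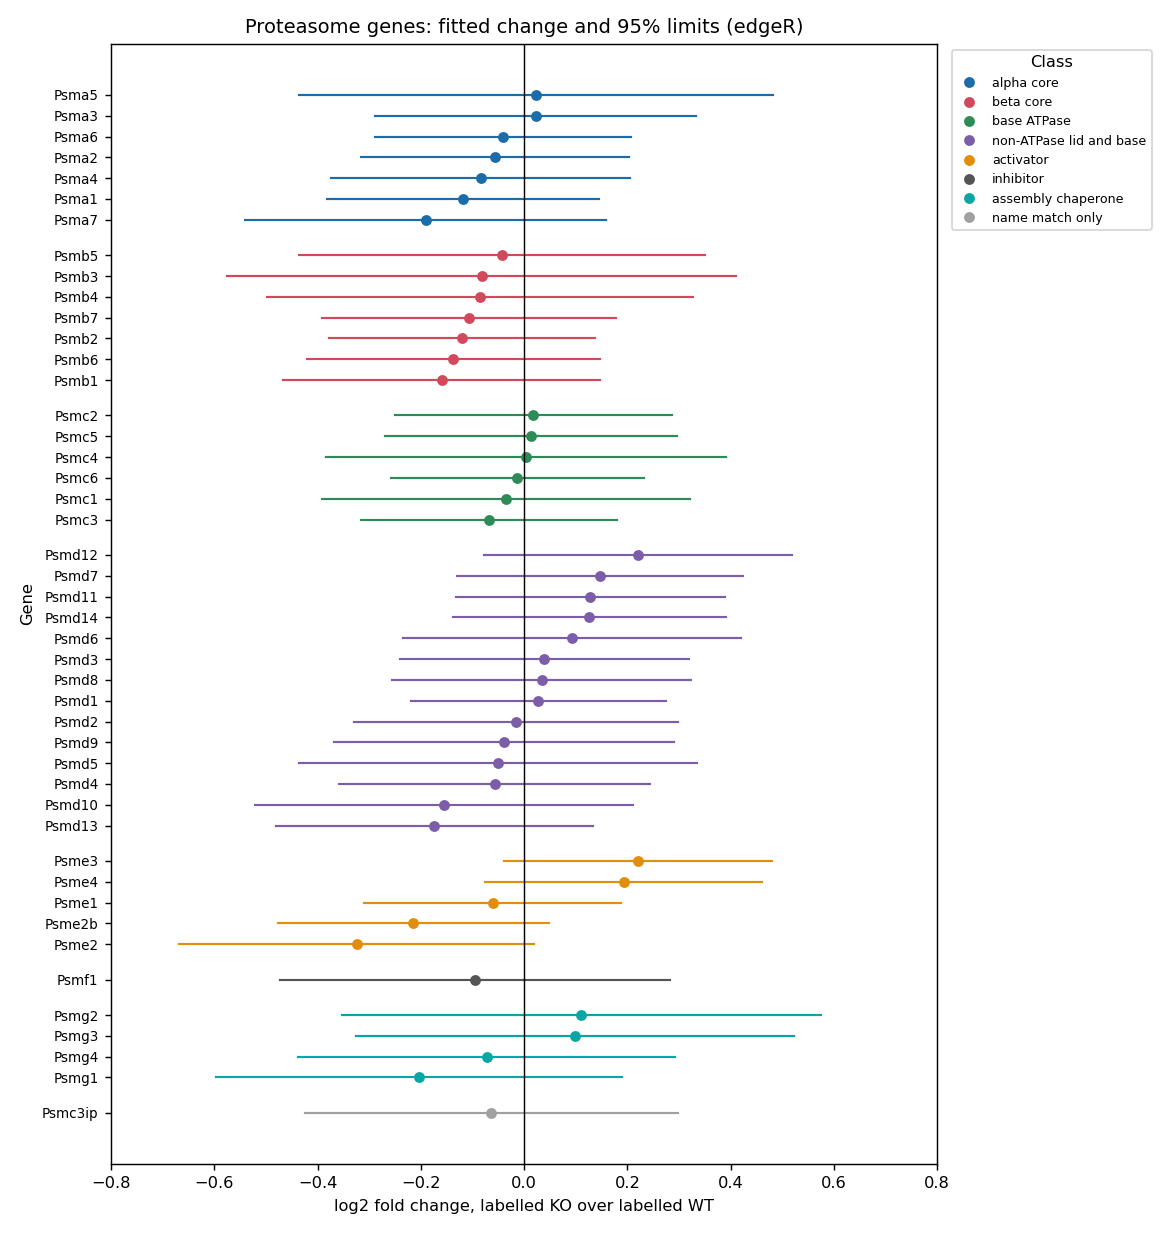
Fitted log2 fold change of each tested proteasome gene, labelled KO over labelled WT (x axis), by class from top to bottom; points are edgeR estimates from 2 libraries per label and lines their 95% limits. Every line crosses 0, and the points run from -0.32 for Psme2 to 0.22 for Psmd12 and Psme3.

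The alpha genes build the outer rings of the core, through which substrates enter. Psma7 had the lowest fitted value among them. It stood at 238 and 183 CPM in the labelled KO libraries and at 228 and 252 CPM in the labelled WT libraries. The groups overlapped, with the second labelled KO library the lowest of all, and the log2 fold change was -0.19 (SE 0.15, adjusted p = 0.636 by edgeR). It was -0.39 without the first labelled KO library and -0.01 without the second. Psma5 had the highest fitted value, 0.02 (SE 0.19), with 88.8 and 85.6 CPM in labelled KO and 68.2 and 103 CPM in labelled WT. Both labelled KO libraries of Psma5 lay between the labelled WT libraries.

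The other alpha genes lay between these values. Psma3 had 77.9 and 75.7 CPM in labelled KO and 69.3 and 81.8 CPM in labelled WT, a log2 fold change of 0.02 (SE 0.13). Psma6 had 205 and 192 CPM in labelled KO and 199 and 210.2 CPM in labelled WT, a log2 fold change of -0.04 (SE 0.10). Among the 7 tested alpha genes, 2 were above 0 and 5 below, with a median of -0.06. Only Psma1 had both labelled KO libraries below both labelled WT libraries, at 238 and 237 CPM against 241 and 274 CPM. That pattern is common here: 23.3% of all genes tested had both labelled KO libraries below both labelled WT libraries, and 21.5% had both above. Psma8, the alpha gene used in testis, had 4 and 9 counts in labelled KO and 5 and 10 counts in labelled WT, too few to test.

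All 7 tested beta genes had a fitted value below 0, with a median of -0.11, and none passed the test. That median was -0.24 without the first labelled WT library and 0.01 without the second, where Psmb5 and Psmb7 were among the genes above 0. The active sites of the core lie in Psmb5, Psmb6 and Psmb7, which cut after hydrophobic, acidic and basic residues in that order. Psmb5 (chr14:54614119-54618022, minus strand) had 181 and 149 CPM in labelled KO and 146 and 193 CPM in labelled WT, and the labelled KO values lay inside the labelled WT range. Its log2 fold change was -0.04 (SE 0.17). Psmb6 (chr11:70525367-70527858, plus strand) had 208 and 191 CPM in labelled KO and 203 and 236 CPM in labelled WT, with a log2 fold change of -0.14 (SE 0.12). Psmb7 (chr2:38588036-38644087, minus strand) had 241 and 221 CPM in labelled KO and 230.0 and 268 CPM in labelled WT, with a log2 fold change of -0.11 (SE 0.12). In both genes the groups overlapped, and the second labelled WT library was the highest.

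The non-catalytic beta genes complete the inner rings. Psmb1 had the lowest fitted value of the class, -0.16 (SE 0.13, adjusted p = 0.659 by edgeR), with 241 and 213 CPM in labelled KO and 231 and 275 CPM in labelled WT. Psmb2 was the beta gene whose groups did not overlap, at 159 and 149.9 CPM in labelled KO and 160.0 and 176 CPM in labelled WT. The gap between its nearest libraries was under 1 CPM. Psmb3 and Psmb4 had the widest spread of the beta genes within a label, Psmb3 at 189.6 and 152 CPM in labelled KO and 144 and 217 CPM in labelled WT. Psmb11, the beta subunit of the thymic cortex, had 0 counts in every library, where a count of 0 allows up to 0.224 and 0.211 CPM in labelled KO and 0.231 and 0.173 CPM in labelled WT, counting error alone.

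The constitutive catalytic genes were set beside their inducible counterparts on the FPKM scale, which divides by gene length. The size of such a ratio depends on the gene length used, while its order between libraries does not. By CPM, which is not divided by length, Psmb8 averaged 293 in labelled KO and 426 in labelled WT, and Psmb5 averaged 165 and 170. The ratio of Psmb8 to Psmb5 was 0.726 and 0.673 in the labelled KO libraries and 1.09 and 0.916 in the labelled WT libraries. The ratio of Psmb9 to Psmb6 was 0.202 and 0.187 in labelled KO and 0.243 and 0.234 in labelled WT. The ratio of Psmb10 to Psmb7 was 0.232 and 0.158 in labelled KO and 0.235 and 0.266 in labelled WT. In all 3 pairs both labelled KO ratios were below both labelled WT ratios, by a narrow gap for Psmb10 to Psmb7. How common that order is among ratios of other genes was not worked out. By CPM, Psmb8 and Psmb9 had both labelled KO libraries below both labelled WT libraries, and Psmb10 overlapped. Of all genes tested, 23.3% showed that order. The inducible gene carried the larger fitted difference in each pair, with log2 fold changes of -0.54 for Psmb8, -0.43 for Psmb9 and -0.47 for Psmb10, and adjusted p of 0.238, 0.268 and 0.481 by edgeR in the same order. At an unadjusted p under 0.05 by edgeR, 2 of the 3 were lower, Psmb8 and Psmb9, against 7.23% of all genes tested. None of the 3 passed the adjusted test, and the difference between partners was not tested.

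**Figure D2:**
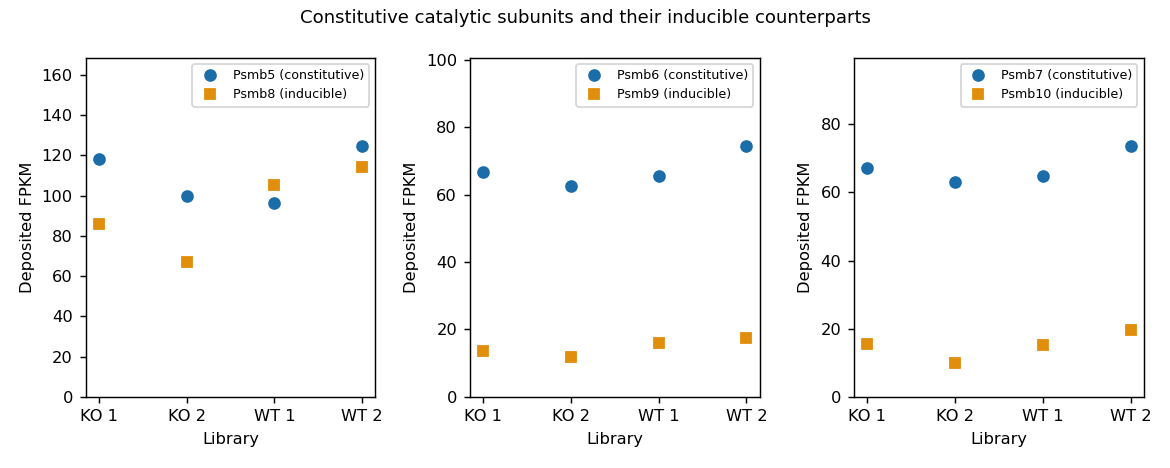
Deposited FPKM (y axis, from 0) of each constitutive catalytic gene (circles) and its inducible counterpart (squares) in the 2 labelled KO and 2 labelled WT libraries (x axis). On this scale Psmb5 and Psmb8 have levels of the same order, while Psmb9 and Psmb10 lie well below Psmb6 and Psmb7 in every library. Distances between genes depend on the gene length that FPKM divides by.

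The 6 ATPases form the ring that unfolds substrates, and they stood nearest to 0 of all classes with more than 1 gene, with a median log2 fold change of -0.00. Psmc2 was the highest, at 0.02 (SE 0.11), with 186 and 188 CPM in labelled KO and 172 and 198 CPM in labelled WT. Psmc3 was the lowest, at -0.07 (SE 0.10), with 271 and 280.3 CPM in labelled KO and 279 and 299 CPM in labelled WT. Psmc5 and Psmc6, at the ends of the class by FPKM, had log2 fold changes of 0.01 (SE 0.12) and -0.01 (SE 0.10). In 5 of the 6 genes both labelled KO libraries lay between the labelled WT libraries, where 15.1% of all genes tested showed that order. Summed over the class, the ATPases had 1237 and 1234 CPM in labelled KO and 1146 and 1352 CPM in labelled WT.

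The non-ATPase genes split by role, a division made after their values were seen. Of the 8 lid genes that the name rule took, 7 had a fitted value above 0, where 48.1% of all genes tested did. Their median was 0.11, and none passed the test. The median of all non-ATPase genes, 0.03 with all libraries, was -0.04 without the first labelled WT library. Psmd12, a lid scaffold, was the highest at 0.22 (SE 0.13, adjusted p = 0.52 by edgeR). It had 179 and 173 CPM in labelled KO and 136 and 166 CPM in labelled WT, and the groups did not overlap. Psmd14, the deubiquitinase that strips ubiquitin from substrates, had 163 and 168 CPM in labelled KO and 142 and 161 CPM in labelled WT. Its partner Psmd7 had 286 and 273 CPM in labelled KO and 233 and 271 CPM in labelled WT. Psmd11 had 172 and 165 CPM in labelled KO and 163 and 146 CPM in labelled WT. These 4 lid genes had both labelled KO libraries above both labelled WT libraries, where 21.5% of all genes tested showed that order. The last 3 had log2 fold changes of 0.13, 0.15 and 0.13 in the order given. Without the first labelled WT library, Psmd7 was at 0.05 and Psmd12 at 0.09.

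The exception among the 8 lid genes of the name rule was Psmd13, with a log2 fold change of -0.17 (SE 0.13). It had 164 and 139 CPM in labelled KO and 160 and 183 CPM in labelled WT. The remaining lid genes of the rule, Psmd3, Psmd6 and Psmd8, had log2 fold changes of 0.04, 0.09 and 0.03. Sem1, a lid subunit outside the name rule, was also below 0, at -0.17. It had 70.7 and 75.5 CPM in labelled KO and 85.4 and 79.4 CPM in labelled WT. Its groups did not overlap, and 23.3% of all genes tested showed that order. The base scaffolds Psmd1 and Psmd2 and the ubiquitin receptor Psmd4 stood at 0.03, -0.02 and -0.06. Psmd5, Psmd9 and Psmd10 are chaperones that assemble the base, and all 3 were below 0, at -0.05, -0.04 and -0.16. Psmd9 had 50.2 and 46.0 CPM in labelled KO and 47.6 and 51.1 CPM in labelled WT, so its groups overlapped. Psmd10 was at 26.8 and 30.9 CPM in labelled KO and at 31.4 and 32.8 CPM in labelled WT, without overlap.

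The activators spanned nearly the whole range of fitted values. Psme3 and Psme4 encode nuclear activators. Psme3 (chr11:101316213-101323537, plus strand) had 571 and 559 CPM in labelled KO and 467 and 503 CPM in labelled WT. Its log2 fold change was 0.22 (SE 0.11), which is 1.17-fold, with 95% limits from -0.04 to 0.48 and an adjusted p of 0.458 by edgeR. Psme4 had 142 and 151 CPM in labelled KO and 120.4 and 136 CPM in labelled WT, a log2 fold change of 0.19 (SE 0.11, adjusted p = 0.533 by edgeR). Both labelled KO libraries were above both labelled WT libraries in both genes.

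Psme1 and Psme2 encode the partners of the interferon-inducible cap. Psme2 had 74.5 and 60.8 CPM in labelled KO and 80.1 and 89.3 CPM in labelled WT. The groups did not overlap, and the log2 fold change was -0.32 (SE 0.14), which is 0.798-fold, with 95% limits from -0.67 to 0.02. Psme2b, a copy of Psme2 without introns, had 145 and 135 CPM in labelled KO and 154 and 170.3 CPM in labelled WT, a log2 fold change of -0.21 (SE 0.11, adjusted p = 0.476 by edgeR). Psme1 had 208 and 202 CPM in labelled KO and 205 and 223 CPM in labelled WT, with overlap and a log2 fold change of -0.06 (SE 0.10). Psme1 and Psme2 lie near each other on chromosome 14, at chr14:55578123-55581529 on the plus strand and chr14:55587441-55591113 on the minus strand.

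Where the transcripts of Psme2 and Psme2b align, few bases separate the 2 genes in the counts. The Psme2 transcript has 962 bases and that of Psme2b 837, so each also has bases outside the aligned stretch. Psme2b lies at chr11:48945354-48946190 on the minus strand. Of 794 bases that align between the transcripts in GENCODE M21, 789 were identical, which is 99.4%, and the longest run without a difference was 341 bases. The 60 coding bases below hold 3 of the 5 differences, and they are shown because reads of the aligned stretch that cover none of the differences read alike in both genes. The stretch is bases 682 to 741 of the Psme2 transcript and bases 556 to 615 of the Psme2b transcript, 5′ to 3′ in the sense of the transcripts, with the differing bases in capitals.
Psme2: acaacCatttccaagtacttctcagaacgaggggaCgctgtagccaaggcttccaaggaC
Psme2b: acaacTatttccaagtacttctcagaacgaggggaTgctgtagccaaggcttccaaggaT

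Psme2 took 34.0% and 31.1% of the counts of both genes together in the labelled KO libraries and 34.2% and 34.4% in the labelled WT libraries. The Wilson 95% intervals were 32.3% to 35.7% and 29.4% to 32.8% in labelled KO and 32.6% to 35.9% and 33.0% to 35.8% in labelled WT, counting error alone. The second labelled KO library had the lowest share. The sources used here do not say how reads were divided between identical stretches, so the levels of Psme2 and Psme2b are uncertain one by one. Summed, they had 219 and 196 CPM in labelled KO and 234 and 260 CPM in labelled WT, without overlap. The log2 fold change of the sum was -0.25 (SE 0.12, adjusted p = 0.425 by edgeR).

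Other proteasome genes share their counts with copies as well. A copy with at least 90% identity over at least 50% of the transcript was found for 11 of the 47 genes, and in 8 the copies had at least 1% of the gene's own counts. Psma5 stood out, since its copies Gm12989 and Gm8394 (97.55% and 98.63% identical) together had 138% of its own counts. Gm12989 had 849 and 927 counts in labelled KO and 735 and 1174 counts in labelled WT. Gm8394 had 775 and 777 counts in labelled KO and 640 and 1106 counts in labelled WT. By counts not scaled to library size, both copies and Psma5 itself were lowest in the first labelled WT library and highest in the second. Those are also the libraries with the fewest and the most counts in all. Psma5 and its copies summed had 211 and 204 CPM in labelled KO and 174 and 237 CPM in labelled WT, the same order. The copies of Psmb5, Psmb3 and Psma4 had 31.2%, 17.6% and 16.2% of the gene's own counts, and those of Psmd2 and Psmd11 had 4.6% and 3.33%. With the copies added, the log2 fold changes were 0.01 for Psma5, -0.04 for Psmb5, -0.10 for Psmb3 and -0.09 for Psma4.

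**Figure D3:**
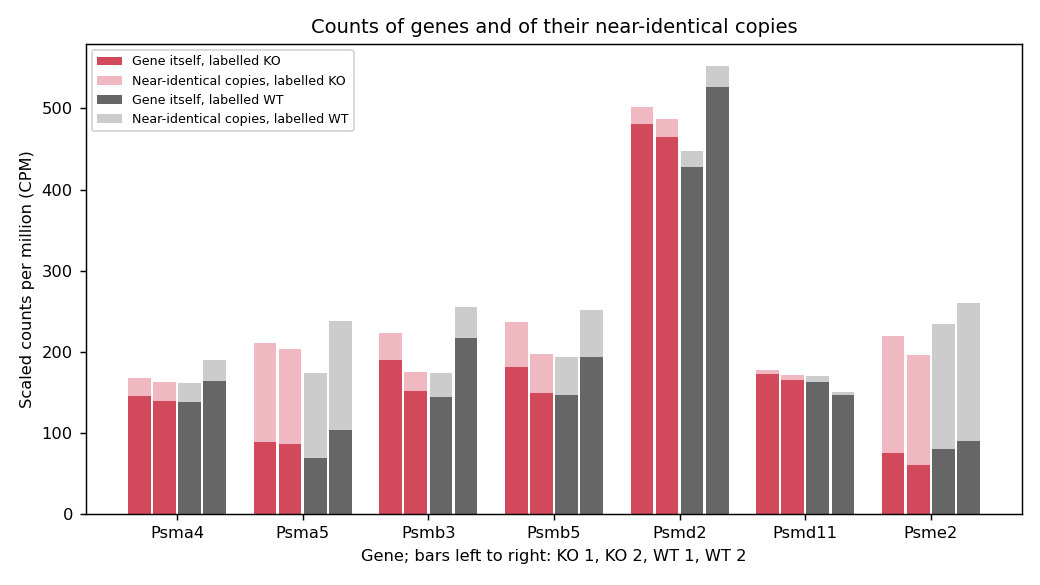
CPM (y axis, from 0) of the proteasome genes with the most counts in near-identical copies, with the labelled KO 1, KO 2, WT 1 and WT 2 bars from left to right; dark parts are the gene itself and light parts its copies. The light parts exceed the dark parts for Psma5 and Psme2 in every library and are small for Psmd2 and Psmd11.

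The remaining genes act around the complex. Psmf1, an inhibitor of the core, had 60.4 and 64.8 CPM in labelled KO and 58.2 and 75.3 CPM in labelled WT, a log2 fold change of -0.09 (SE 0.16). Psmg1 to Psmg4 are the chaperones that assemble the alpha ring. Psmg1 was the lowest of them at -0.20 (SE 0.17), with 49.8 and 39.3 CPM in labelled KO and 48.6 and 54.0 CPM in labelled WT. Psmg2 was the highest at 0.11 (SE 0.20), with 41.2 and 42.2 CPM in labelled KO and 31.7 and 45.4 CPM in labelled WT. Psmg3 and Psmg4 stood at 0.10 (SE 0.18) and -0.07 (SE 0.15), and the groups of all 4 chaperones overlapped. Psmc3ip, which is no subunit, had 19.7 and 20.0 CPM in labelled KO and 20.1 and 21.4 CPM in labelled WT, a log2 fold change of -0.06 (SE 0.15).

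The larger spread in the data was between libraries that carry the same label. The second labelled WT library was above the first in 44 of 45 tested proteasome genes, against 49.7% of all genes tested, and Psmd11 was the exception. The second labelled KO library was below the first in 33 of 45, against 49.5% of all genes tested. That order held in all 14 tested alpha and beta genes, but in only 2 of the 6 ATPases. Summed over the core, the alpha and beta genes had 2752 and 2483 CPM in labelled KO and 2540 and 3055 CPM in labelled WT. The lid and base genes without ATPase had 2704 and 2580 CPM in labelled KO and 2424 and 2720 CPM in labelled WT. The activators had 1141 and 1107 CPM in labelled KO and 1026 and 1121 CPM in labelled WT.

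Over all 47 genes the sum was 8097 and 7650 CPM in labelled KO and 7367 and 8537 CPM in labelled WT, a mean of 7873 ± 316 CPM in labelled KO and 7952 ± 828 CPM in labelled WT (SD, n = 2 each). The libraries of each label thus differed by more than the label means did. Members of 1 library are not independent of each other, and whether animal, cell preparation or library preparation moved them together was not tested. The groups did not overlap in 12 of 45 genes: Psmd7, Psmd11, Psmd12, Psmd14, Psme3 and Psme4 were higher in both labelled KO libraries, and Psma1, Psmb2, Psmd10, Psme2, Psme2b and Psmc3ip were lower. These 6 and 6 genes are a smaller share of the 45 than the 21.5% and 23.3% found over all genes tested.

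**Figure D4:**
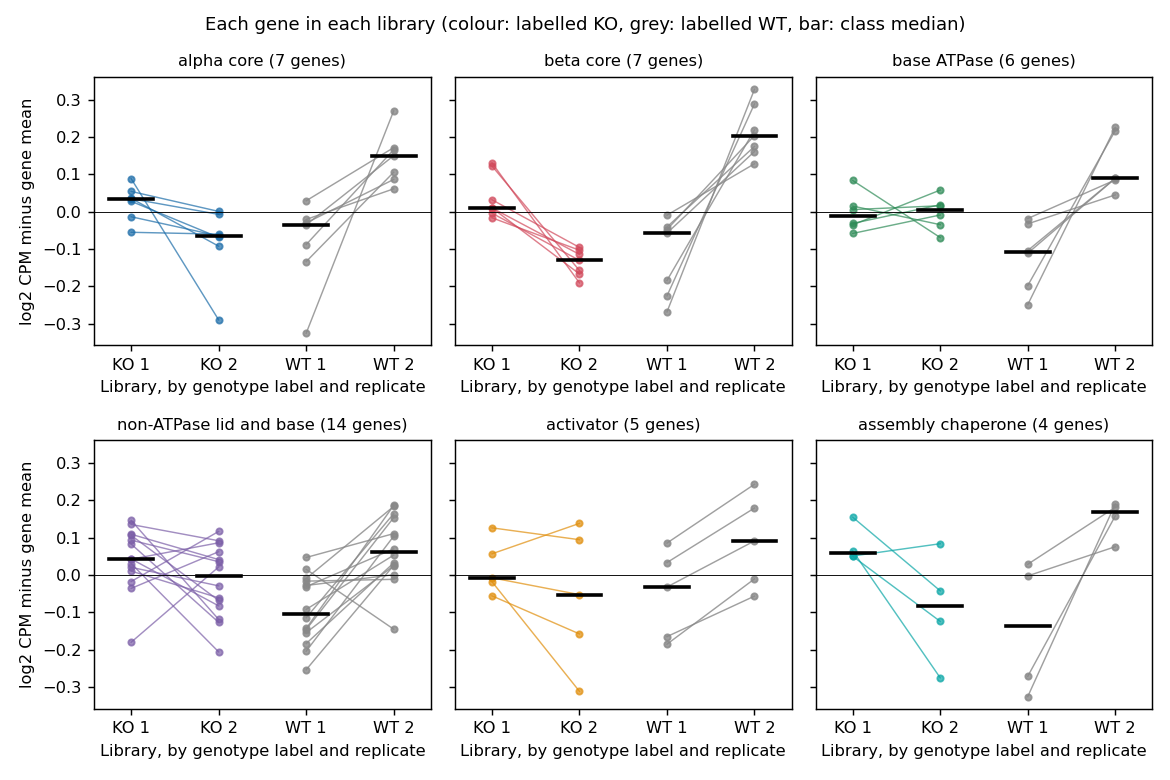
Each tested gene as log2 CPM minus its mean over the 4 libraries (y axis), by class (panels), in the labelled KO and labelled WT libraries (x axis); thin lines join the libraries of 1 gene within a label and bars are class medians. In every panel the WT 2 median is the highest of the 4, and in the alpha and beta panels every KO 2 point is below the KO 1 point of the same gene.

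The libraries also decided how the classes lean. Without the first labelled WT library, the median log2 fold change of the alpha genes was -0.20, and without the second labelled WT library that of the ATPases was 0.12, while each was near 0 with all libraries. Without the second labelled WT library, 32 proteasome genes were above 0 and 13 below. Without the first labelled WT library, 8 were above 0 and 37 below. None passed an adjusted p of 0.05 by edgeR in either case. Psma5 was at 0.35 and Psmd12 at 0.37 without the second labelled WT library, beside 0.02 and 0.22 with all libraries. Psme2 was at -0.39 without the first labelled WT library and at -0.48 without the first labelled KO library. Psma7 was at -0.39 without the first labelled KO library. These genes were picked for their values in these fits.

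Levels were compared between genes per unit of length. By the deposited FPKM, averaged over the 4 libraries, the tested genes ran from 6.09 for Psmd9 to 231 for Psmb1. The subunits of the beta rings, which are used in equal number, ran from 67.2 (Psmb7) to 231 FPKM (Psmb1), a 3.44-fold range. The alpha genes ran from 12.2 (Psma3) to 105.5 FPKM (Psma6). The order depends on the gene length used. The length implied by count and FPKM was 0.589 to 5.89 times that of the principal transcript in GENCODE M21, with a median of 2.39 times, and it was over 2 times in 27 of 45 genes. For Psmb1 it was 1036 bases, shorter than the 1758 bases of the transcript, and for Psmb6 it was 3107 bases, longer than the 798 bases of the transcript.

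Recomputed as CPM per kilobase of principal transcript, the beta genes ran from 137 (Psmb1) to 263 (Psmb6), a 1.92-fold range. Psmb1 thus stood at rank 1 of 7 by FPKM and at rank 7 of 7 by CPM per kilobase, while Psmb6 stood at rank 6 by FPKM and at rank 1 by CPM per kilobase. Fold changes between labels are untouched by this choice, since the length of a gene is the same in all libraries. Psme2b, at 179.9 FPKM, and Psme2, at 21.6 FPKM, also differ in implied length, at 837 and 3518 bases.

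**Figure D5:**
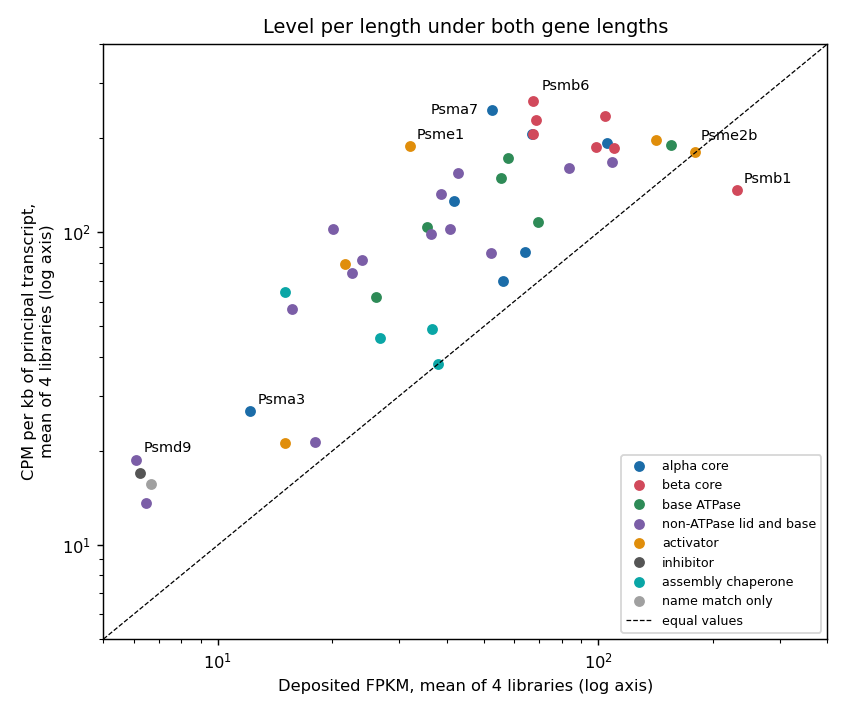
Mean level of each tested proteasome gene over the 4 libraries as deposited FPKM (x axis, log scale) and as CPM per kilobase of principal transcript (y axis, log scale), coloured by class, with a dashed line at equal values. Psmb1 is the only gene clearly below the line and moves from the highest FPKM, 231, to 137 CPM per kilobase.

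Proteasome genes are known targets of the transcription factor NRF1, the product of Nfe2l1, which binds antioxidant response elements with small MAF proteins when proteasome activity is short. The core of that element, TGACNNNGC, was looked for on both strands in the RefSeq windows from 250 bases before to 50 bases after a gene's start (GRCm38.p6). It was found in 6 of the 39 proteasome genes with a window, which is 15.4%, namely Psmb5, Psmb6, Psmc6, Psmd9, Psmd12 and Psme4. Among all 27025 genes with a window the share was 14%. CCAAT was found in 35.9% of the proteasome genes and 41.1% of all genes, and GGGCGG in 56.4% and 38.2%. Matches of different motifs overlapped once in the 42 proteasome windows. A match is a description of the letters and shows no binding.

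The bases before the start are printed for Psmb5 and Psmb6, the catalytic genes that hold the element, and for Psmd12, the lid gene with the highest fitted value, where it stands on the other strand. Each is 250 bases on the gene's strand, 5′ to 3′, credited to RefSeq (GRCm38.p6), with the match in capitals. They are chr14:54617996-54618245 on the minus strand for Psmb5, chr11:70525107-70525356 on the plus strand for Psmb6 and chr11:107479278-107479527 on the plus strand for Psmd12.
Psmb5: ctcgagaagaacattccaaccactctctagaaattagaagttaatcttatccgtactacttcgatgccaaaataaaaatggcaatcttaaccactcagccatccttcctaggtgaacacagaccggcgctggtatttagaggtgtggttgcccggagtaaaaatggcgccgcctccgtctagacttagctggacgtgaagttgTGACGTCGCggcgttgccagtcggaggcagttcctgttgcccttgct
Psmb6: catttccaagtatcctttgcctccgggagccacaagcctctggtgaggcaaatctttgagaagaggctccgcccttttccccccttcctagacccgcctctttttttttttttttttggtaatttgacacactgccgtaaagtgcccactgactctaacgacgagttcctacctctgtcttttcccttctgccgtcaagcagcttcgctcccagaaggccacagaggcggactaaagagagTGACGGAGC
Psmd12: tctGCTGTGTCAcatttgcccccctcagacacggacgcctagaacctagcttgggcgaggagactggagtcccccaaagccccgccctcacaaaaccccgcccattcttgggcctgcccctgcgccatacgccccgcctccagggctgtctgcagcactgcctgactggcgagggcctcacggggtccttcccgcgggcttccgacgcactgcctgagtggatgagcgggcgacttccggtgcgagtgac
The matches begin 47 bases before the start in Psmb5, 9 bases before it in Psmb6 and 247 bases before it in Psmd12. Their fitted log2 fold changes were -0.04, -0.14 and 0.22 in that order, where Psmd12 had been picked for its high value. Psmc6, Psmd9 and Psme4, which also hold the element, stood at -0.01, -0.04 and 0.19. Whether the element bears on these values was not tested.

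Genes known to regulate proteasome expression were read from the same fit. None of the 17 tested was called, against 0.207% of all genes tested, and the median log2 fold change was -0.00. Nfe2l1 had 51.3 and 56.1 CPM in labelled KO and 64.5 and 55.7 CPM in labelled WT, with overlap and a log2 fold change of -0.16. The small MAF genes Mafg and Mafk were the 2 at an unadjusted p under 0.05, both higher in labelled KO, where 5.7% of all genes tested were higher at that threshold. Mafg had 70.6 and 77.7 CPM in labelled KO and 47.1 and 59.4 CPM in labelled WT, a log2 fold change of 0.48 (SE 0.16, adjusted p = 0.285 by edgeR). Mafk had 85.2 and 77.0 CPM in labelled KO and 60.9 and 66.2 CPM in labelled WT, a log2 fold change of 0.35 (SE 0.13, adjusted p = 0.32 by edgeR). Ngly1, the enzyme that removes sugars from NRF1, was the lowest of the list at -0.28.

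Genes for proteins that bind the proteasome or help to build it were read from the same fit. Of 21 tested genes for associated proteins, ubiquitin receptors and assembly factors, none was called and none reached an unadjusted p under 0.05 by edgeR. Over all genes tested, 0.207% were called, and 5.7% were higher and 7.23% lower at that unadjusted threshold. Values were above 0 for 13 and below for 8, where 48.1% of all genes tested were above 0 and 51.9% below. Their median was 0.08, beside -0.01 over all genes tested. The highest was Zfand5, which stimulates the proteasome, at 0.30, and the lowest was Fbxo7, a ubiquitin ligase component, at -0.28. Of the 7 genes for ubiquitin and its activation, none was called, against the same 0.207% of all genes tested, and the median was -0.14. Uba7, the activating enzyme of the ubiquitin-like modifier ISG15, had 17.3 and 17.7 CPM in labelled KO and 26.3 and 26.5 CPM in labelled WT, a log2 fold change of -0.60 (SE 0.15, adjusted p = 0.196 by edgeR). Uba6, an activating enzyme of ubiquitin itself, stood at 0.36 (SE 0.15, adjusted p = 0.373 by edgeR).

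Exons of 4 proteasome genes overlap those of another gene on the same strand and 10 overlap a gene on the other strand. The longest overlap with a gene that had counts in every library was between Psmb7 and Nek6, over 405 bases, where Nek6 had 440 and 476 counts in labelled KO and 310 and 453 counts in labelled WT. Psmb7 had at least 2993 counts in every library. Psmc3ip shares 385 bases with Mlx on the other strand, and there the neighbour had more counts in every library. Mlx had 671 and 648 counts in labelled KO and 328 and 483 counts in labelled WT. Psmc3ip had 262 and 289 counts in labelled KO and 261 and 364 counts in labelled WT. Whether reads of Mlx entered the counts of Psmc3ip was not tested. The sources used here do not say whether the counting was stranded.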

How the data were processed

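Groups followed the genotype field of the labels, and the columns of the table were joined to samples through the description codes. Per the file headers, the authors deposited whole-number counts per gene without normalization, and the deposited FPKM divides these by gene length and library total. The submitters' processing notes name kallisto and GRCm38, without version or role; the sources used here do not say how reads were counted, whether by strand, or what was filtered. The table holds 8 other value columns, which were not used.

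Genes were filtered by filterByExpr (13528 left), scaled by TMM and tested with edgeR 4.0.16 (quasi-likelihood F test, two-sided, Benjamini-Hochberg adjustment over all genes tested, threshold 0.05) in R 4.3.3. CPM are scaled by TMM, and SE is the size of a log2 fold change over the square root of F. Counting error is small at these depths, and the biological coefficient of variation was 15.9%; replicates differed far beyond counting noise (chi-square over degrees of freedom 12.8 for the labelled KO pair and 17.6 for the labelled WT pair). With 2 libraries per label, p-values measure the spread between these samples only. Alternatives were DESeq2 1.42.0, other scalings and filters, limma 3.58.1 on log2(FPKM + 1) and log2(FPKM + 0.1), a replicate block and leaving out each library.

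Copies were found with blastn 2.17.0 between GENCODE M21 transcripts, where 44 of the 47 genes lie at the deposited position. The fit was tested on simulated counts before use.

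The genes, lists and tests were chosen with earlier results of these data known. Genes named with values were those called, those at an unadjusted p under 0.05, the ends of each class by log2 fold change and by mean FPKM, the catalytic genes, the activators and genes at 0 counts throughout. The other proteasome genes printed with a value were added after their values were seen, so that the classes are described in full. Of the 22 associated genes listed, Paaf1 was not matched by name.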

Additional observations from a re-analysis of the deposited data

How the results depend on the processing

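No proteasome gene passed an adjusted p of 0.05 under any of 15 alternatives, and the lowest adjusted p of a proteasome gene ran from 0.203 to 0.873. The number called over all genes moved from 28 to 277 with DESeq2, 146 when every gene with a count was kept, 5 on log2(FPKM + 1), 4 on log2(FPKM + 0.1), and 8 to 304 with 1 library left out (59 without the first and 8 without the second labelled KO library, 304 without the first and 255 without the second labelled WT library). With the replicate number as a block it was 123, and with crossed numbers, added after seeing the data, 12. The labels do not say whether libraries with the same number share anything. Deviations of same-numbered libraries correlated at -0.168 over 13528 genes, and those of crossed numbers at 0.168. With 2 libraries per label these values mirror each other by construction, so they cannot decide whether the numbers mark a block. Proteasome genes at an unadjusted p under 0.05 numbered 1 by library totals and 1 by log2(FPKM + 1), Psme3 in both. With crossed numbers there were 3 (Psme2, Psme2b and Psme3). The share of all genes tested at that threshold was not worked out for these alternatives, so the counts stand without it. The replicate block changed no call of a proteasome gene. The activator median, -0.06, became 0.066 with copies summed, also added after seeing the data, because Psme2 and Psme2b then count as 1 gene. With 1 library left out, the median log2 fold change ran from -0.117 to 0.05 for all proteasome genes, -0.199 to 0.012 for alpha genes, -0.235 to 0.007 for beta genes, -0.093 to 0.118 for ATPases, -0.045 to 0.102 for the other lid and base genes, -0.115 to 0.003 for activators and -0.111 to 0.15 for chaperones. Psmc6, at -0.013, became 0.006 by library totals and on both FPKM scales. Leaving out 1 library turned the sign of values near 0, with ranges of -0.086 to 0.148 for Psma3, -0.237 to 0.354 for Psma5, -0.089 to 0.013 for Psma6, -0.224 to 0.174 for Psmb5, -0.206 to 0.007 for Psmb7, -0.073 to 0.123 for Psmc2, -0.074 to 0.114 for Psmc5, -0.045 to 0.027 for Psmc6, -0.103 to 0.028 for Psmd9, -0.115 to 0.003 for Psme1, -0.262 to 0.104 for Psmf1, -0.117 to 0.394 for Psmg2 and -0.093 to 0.331 for Psmg3. The sign held but the size moved for Psma7 (-0.392 to -0.008), Psmb1 (-0.274 to -0.028), Psmb6 (-0.235 to -0.025), Psmc3 (-0.113 to -0.015), Psmc3ip (-0.104 to -0.014), Psmd7 (0.049 to 0.26), Psmd12 (0.094 to 0.368), Psmd13 (-0.297 to -0.054), Psme2 (-0.478 to -0.179), Psme2b (-0.28 to -0.139), Psme4 (0.114 to 0.284) and Psmg1 (-0.383 to -0.037). For Psme3 the range was 0.173 to 0.276. Where a label keeps 1 library, that library is assumed to vary like the others. The causes of these shifts were not tested.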
